A study of Mus musculus with 4 samples.

Results

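Untreated primary hepatocytes of liver-specific Drp1 knockout (Drp1LiKO) mice were compared with untreated hepatocytes of control mice across all genes of a mouse whole-genome array. The comparison took every gene whose probe the scanner software flagged as well above background on both of these arrays. This left 17652 of the 37074 gene names on the array, of which 12567 were gene symbols and the rest accessions, clone names or predicted loci. At a 2-fold threshold, 29 of 42 measured interferon-stimulated effectors, 14 of 17 macrophage, 10 of 15 endothelial and 5 of 8 stellate markers and 19 of 52 cytochrome P450 genes rose in Drp1LiKO cells. In the other direction 50 of 61 mitotic and 21 of 58 DNA replication genes fell, and 0 of 75 respiratory chain subunits were called. Over all measured genes 4.46% rose and 3.36% fell.

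Drp1 is the dynamin-related GTPase encoded by Dnm1l. It assembles on the outer mitochondrial membrane and constricts it, so that mitochondria divide. Receptors such as Fis1 and Mff recruit it from the cytosol, and the mitofusins and Opa1 carry out the opposite reaction, fusion.

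Drp1LiKO mice carry floxed alleles of Dnm1l (Drp1flox/flox) and a Cre transgene under the albumin promoter, which is active in hepatocytes, so that the other cells of the liver are not expected to lose the gene. Controls were described as Drp1flox/flox littermates without Cre, although the sample label of the untreated control calls it wild-type. The strain was C57BL/6 and the study's animals were male. The age of the mice was not given in the sources used here. Hepatocytes were freed by collagenase, pelleted at low speed, plated on collagen and harvested 24 h after seeding, and the labels name no agent added to the untreated cultures. Each group had 1 array, so no difference below has a replicate check or a p-value, and precision is limited by the number of arrays. Both untreated arrays lay on 1 slide. The label of the control array states that another series uses its raw data as well. The number of mice behind each array was not given in the sources used here. Another pair of arrays on another slide held the same genotypes after 200 μM palmitate, a saturated fatty acid. It shared no array with the untreated pair, and its values are set beside those of the untreated pair below. Whether it shared animals with it was not given.

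Values are log2 processed signals minus the 75th percentile of their own array, so that 0 is that percentile and a difference of 1 is 2-fold. A gene with several probes is given by whichever of them had the highest mean over the 4 arrays. A gene is said to have risen or fallen (to be called) when Drp1LiKO and control differed at least 2-fold. Of 6025 genes with a further measured probe, the differences given by both probes were 0.21 log2 units apart at the median, which is a technical error and holds nothing of the spread between animals.

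Dnm1l itself fell from 2.44 in control to 1.09 in Drp1LiKO hepatocytes, a log2 difference of -1.35 or 2.55-fold. In the palmitate pair it went from 2.44 to 1.02. The probe lay at chr16:16312363-16312422 in the file's annotation (build mm9). Whether that position is inside the deleted exons is not given in the sources used here, so the probe checks the label only as far as the transcript is lost. A second, dim Dnm1l probe at chr16:16336911-16336970 gave -4.39 and -4.74, a difference of -0.35.

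The labelled cell type held. Of 18 hepatocyte markers, 17 were well above background on both arrays and Pck1, an enzyme of gluconeogenesis, was not on either. Albumin (Alb) gave 8.84 in control and 9.04 in Drp1LiKO, the nuclear receptor Hnf4a 3.27 and 3.34, and the bile salt carrier Slc10a1 8.38 and 8.42. The summed signal of the measured hepatocyte markers was 11.06 on the log2 scale in control and 11.02 in Drp1LiKO. Of them 3 rose (Cyp3a11, Tat and Ass1) and none fell, with a median difference of 0.24.

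Over all measured genes, 1381 differed at least 2-fold (7.82%). Of these 788 were higher in Drp1LiKO (4.46%) and 593 were lower (3.36%). The median difference over all genes was -0.04. At 4-fold, 191 genes were higher and 79 lower. At 8-fold, 51 were higher and 16 lower, and at 16-fold 11 were higher and 0 lower. Calls were more frequent among dim genes. In the dimmest tertile by mean signal 13.1% of 5884 genes were called, in the middle tertile 7.22% and in the brightest 3.18%.

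**Figure D1:**
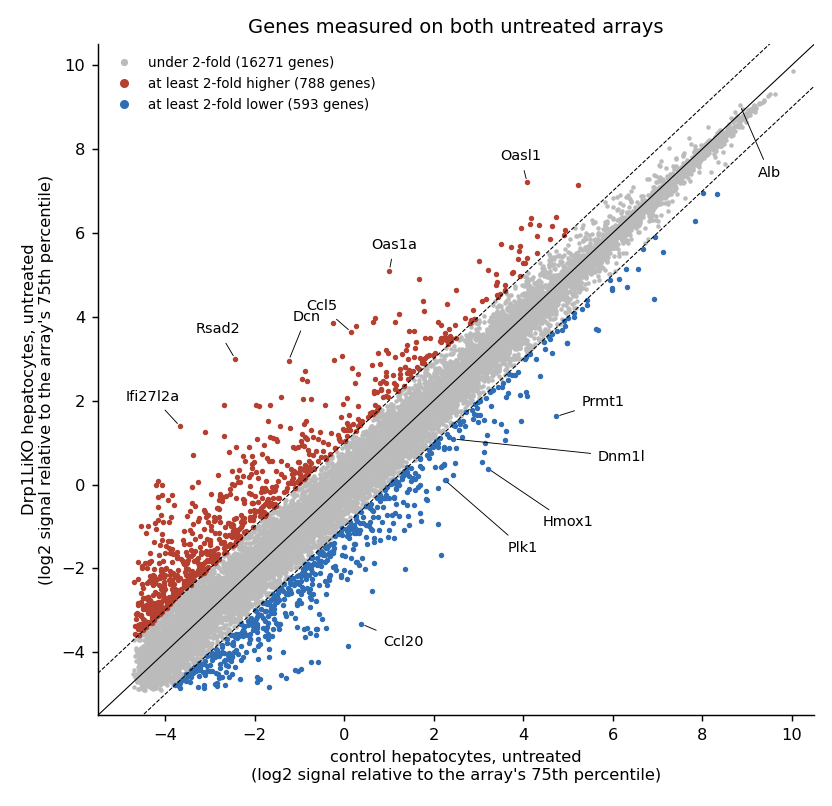
Each point is 1 of the 17652 genes measured on both untreated arrays, with its level in control (x axis) and Drp1LiKO hepatocytes (y axis) as log2 signal relative to the 75th percentile of its array. The solid line marks equal levels and the dashed lines 2-fold differences, and the rises of Rsad2, Ifi27l2a and Dcn lie far above the line while Ccl20, Prmt1 and Hmox1 lie far below it.

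Most of the largest rises were antiviral genes that interferon induces. Interferons act through receptors and STAT proteins to switch on many such genes, whose products degrade viral RNA, block its translation or mark infected cells. Rsad2 (viperin, an antiviral enzyme of the endoplasmic reticulum, ER, and of lipid droplets) rose the most, from -2.44 in control to 3.0 in Drp1LiKO, 43.2-fold. Ifi27l2a went from -3.67 to 1.39 (33.4-fold), and Oasl2, of the 2',5'-oligoadenylate synthetase family that senses double-stranded RNA, from -2.69 to 1.90 (24.2-fold). In the palmitate pair the same differences were 3.70, 4.73 and 3.58. A second Rsad2 probe rose from -1.67 to 1.31, a difference of 2.98, so that the size of the Rsad2 rise depended on the probe and its direction did not.

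Among the 15 genes that rose most were also the RNA-binding Ifit3 (4.35) and Ifit3b (4.22), the synthetases Oas1a (4.09), Oas1f (4.09) and Oas1g (3.84), and Phf11a (4.18) and Phf11d (3.86). The remaining ones belonged to other gene families. Dcn, the matrix proteoglycan decorin, went from -1.24 to 2.95. Casp4, the caspase that binds cytosolic lipopolysaccharide, went from -3.37 to 0.71 and the chemokine Ccl4 from -4.06 to -0.01. The surface protein Ly6a went from -2.69 to 1.15, and Ms4a7, a membrane protein of macrophages, from -4.08 to -0.26. Of these 15 genes 14 were measured in the palmitate pair, where Drp1LiKO was again higher for all 14. Ms4a7 was the exception, since it was not above background there in control. Ifit3 and Ifit3b, and the Oas1 genes, are close copies of each other, so their probes may share signal. A neighbouring spot is called lit below when, within the 24 spots around a spot, it was well above background on 1 untreated array alone and at least 2-fold higher there than on each of the other 3 arrays. The Phf11a spot had 2 lit neighbours on the Drp1LiKO array and the Ly6a spot had 2 on the control array.

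**Figure D2:**
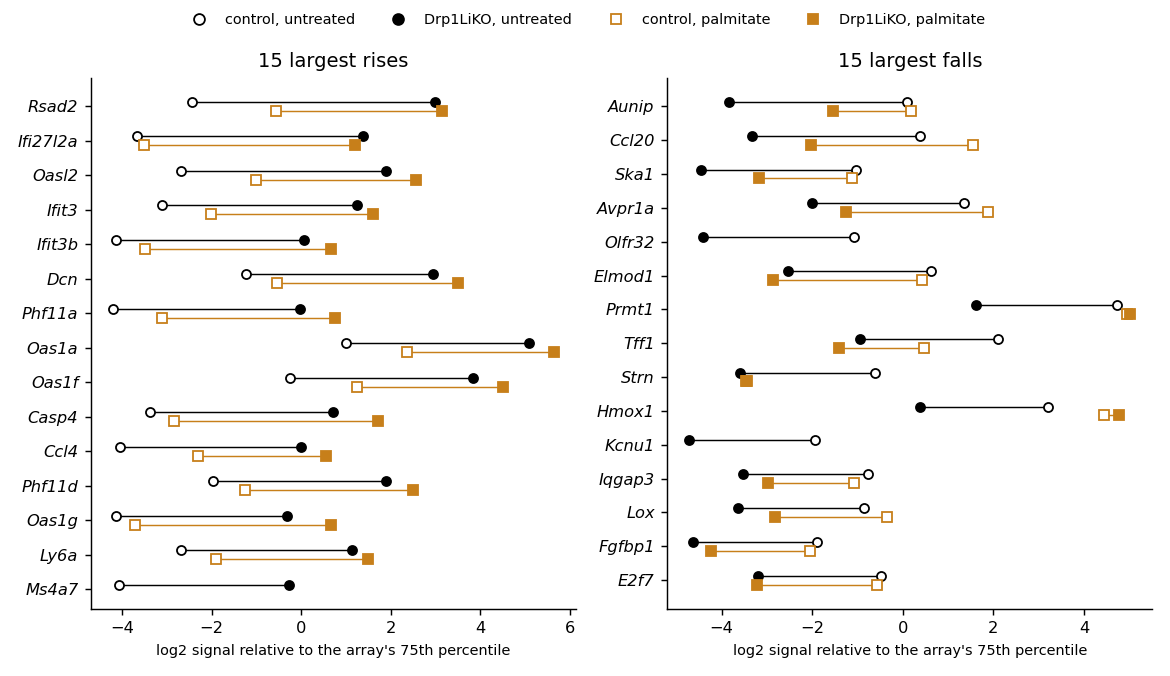
Levels of the 15 genes that rose most (left) and the 15 that fell most (right) on each of the 4 arrays, as log2 signal relative to the 75th percentile of the array. Open symbols are control and filled symbols Drp1LiKO, circles are untreated and squares palmitate arrays, each symbol is 1 array, and palmitate values are drawn only where the gene was measured on both arrays of that pair. The squares repeat the direction of the circles for all rises drawn, but not for Prmt1, Strn and Hmox1.

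Of the list of 51 interferon-stimulated effectors, 50 were on the array and 42 were measured on both arrays. Of these 29 rose (69.0%, against 4.46% of all genes) and 0 fell, with a median difference of 1.80 against -0.04. In the palmitate pair 24 of 42 were at least 2-fold higher, with a median of 1.25. Isg15, a ubiquitin-like modifier, went from 1.22 to 4.06 and Usp18, the protease that removes it, from 1.79 to 4.13. Ifit1 went from -3.85 to -0.24, Mx2 from -3.27 to 0.05 and the nucleic acid sensor Zbp1 from -0.89 to 1.45. Not every member passed 2-fold. Eif2ak2, the kinase PKR, gave 1.13 and 0.90, Bst2 4.69 and 4.48, Ifit2 -2.83 and -2.93, and Oas1b 4.24 and 4.27. A further 6 members (Mx1, Oas2, Oas3, Ifi44, Sp100 and Slfn8) were above background in Drp1LiKO but not in control. Of 19860 genes above background on at least 1 untreated array, 1536 were so in Drp1LiKO alone and 672 in control alone. Among the 6 members, Slfn8 was 24.3-fold and Ifi44 22.7-fold above the lowest signal flagged well above background on the control array. Oas2 was 14.1-fold above it, although its spot had 3 lit neighbours. Spots without the flag can lie above that signal, so these folds are approximate.

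The 250 bases before the transcription start are shown for the interferon-stimulated effectors with the largest rises among those in the promoter table, because interferon regulatory factors bind a repeated GAAA in such promoters. Sequences are from RefSeq (GRCm38.p6), 5′ to 3′ on the gene's strand. Capitals mark the letters AAANNGAAA or their reverse complement.
Rsad2 (chr12:26456453-26456702, minus strand): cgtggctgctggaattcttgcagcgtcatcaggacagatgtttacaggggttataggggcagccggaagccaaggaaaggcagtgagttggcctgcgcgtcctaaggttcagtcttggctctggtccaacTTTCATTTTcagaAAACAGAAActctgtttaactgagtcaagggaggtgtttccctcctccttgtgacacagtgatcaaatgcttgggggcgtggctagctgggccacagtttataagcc
Oasl2 (chr5:114896684-114896933, plus strand): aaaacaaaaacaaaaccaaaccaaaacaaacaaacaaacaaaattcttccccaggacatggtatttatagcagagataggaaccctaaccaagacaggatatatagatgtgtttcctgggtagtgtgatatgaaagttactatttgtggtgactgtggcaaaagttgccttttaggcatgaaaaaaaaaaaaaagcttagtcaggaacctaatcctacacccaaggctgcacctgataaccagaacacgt
Ifit3 (chr19:34583279-34583528, plus strand): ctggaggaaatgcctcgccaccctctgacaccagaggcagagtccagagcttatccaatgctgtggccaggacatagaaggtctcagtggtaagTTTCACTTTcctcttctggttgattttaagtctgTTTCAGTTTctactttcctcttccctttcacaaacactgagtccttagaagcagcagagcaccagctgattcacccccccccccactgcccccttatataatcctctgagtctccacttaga
Ifit3b (chr19:34607707-34607956, plus strand): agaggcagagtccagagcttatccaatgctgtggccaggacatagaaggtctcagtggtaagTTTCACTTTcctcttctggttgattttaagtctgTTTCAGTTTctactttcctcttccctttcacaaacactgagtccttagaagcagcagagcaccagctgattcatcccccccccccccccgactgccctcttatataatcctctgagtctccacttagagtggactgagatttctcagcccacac

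The motif stood 2 times before Rsad2, 2 times before Ifit3 and 2 times before Ifit3b, and 0 times in the window before Oasl2. The matches before Ifit3 began 156 and 122 bases before the start, and those before Ifit3b 188 and 154. Over the whole 300-base window of the table (50 bases after the start included), the motif was in 68.8% of 32 promoters of measured interferon-stimulated effectors. It was in 14.4% of 577 promoters of genes that rose, in 7.13% of 463 promoters of genes that fell, in 8.05% of 13956 promoters of all measured genes and in 10.6% of all 32851 promoters. A match is a string of letters and says nothing of binding.

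Genes that carry the interferon signal rose in part. Of 28 measured signalling genes 7 rose (25.0%, against 4.46% of all genes) and 1 fell (3.57%, against 3.36%), with a median of 0.16. The transcription factor Irf7 went from 4.36 to 6.19, and members of the interferon-activated complex rose as well, Stat2 from 1.36 to 2.81 and Irf9 from 1.49 to 2.56. Tmem173 (STING) and the receptor chain Ifnar1 rose by 1.12 and 1.11 on the log2 scale. A second Ifnar1 probe differed by only 0.02. Mb21d1 (cGAS), the sensor of cytosolic DNA, fell from -0.83 to -2.46. Other genes of the list did not pass 2-fold. Irf3 gave 3.56 and 3.64, Mavs 1.56 and 1.49, Jak1 3.48 and 3.29, and the feedback inhibitor Socs1 -2.47 and -2.33. Of the interferon genes, Ifna1 (-3.90 and -3.71) and Ifnl3 (-4.24 and -3.52) were dim. Ifna2 was above background in Drp1LiKO alone, and Ifnb1, Ifna4 and Ifng were above background on neither array.

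Interferon-inducible GTPases, which guard cells against intracellular pathogens, were called in 1 direction. Of 16 measured, 7 rose (43.8%, against 4.46% of all genes) and 0 fell, with a median of 0.85. Gbp3 rose 5.99-fold (-1.84 to 0.74) and Igtp 2.55-fold (2.25 to 3.60), while Irgm1 gave 2.28 and 2.67 and Ifi47 1.73 and 1.45. Major histocompatibility complex (MHC) class I genes shifted by less. Of 22 measured, 17 were higher in Drp1LiKO, but only H2-T22 passed 2-fold (4.08 to 5.39, with 2 lit neighbours on the Drp1LiKO array), with a median of 0.27, B2m at 7.04 and 7.62 and H2-K1 at 7.69 and 8.25. Tap2, a chain of the peptide transporter, fell from 2.97 to 1.83 but gave a difference of 0.38 in the palmitate pair. In MHC class II presentation Cd74 (the invariant chain) rose by 2.40 and the protease Ctss by 3.23 on the log2 scale, whereas H2-Ab1 gave -0.08 and -0.32.

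These cultures also differed in the markers of other liver cells. Hepatocyte preparations by low-speed pelleting retain some Kupffer cells (the liver's macrophages), sinusoidal endothelial cells and stellate cells, the vitamin A-storing cells that make matrix. Of 29 macrophage markers on the list, 17 were measured on both arrays. Of these 14 rose (82.4%, against 4.46% of all genes) and 0 fell, with a median difference of 2.34 (1.69 in the palmitate pair). Adgre1, the classical macrophage surface marker, went from -3.37 to -0.93, Marco from -3.24 to -0.81, Cd5l from -1.44 to 1.40, Cd68 from 2.29 to 4.30 and Lyz2 from 0.79 to 2.88. Another 7, among them Clec4f, Vsig4, Mrc1, Msr1, Fcgr1 and Laptm5, were above background in Drp1LiKO alone, and Timd4, Cd163, Spi1, Cx3cr1 and Ccr2 on neither array. Over all genes 1536 were above background in Drp1LiKO alone and 672 in control alone. The measured members that did not pass 2-fold were Csf1r (0.97 and 1.56), Cd14 (3.74 and 3.96) and Itgam (3.11 and 3.13). The 2 largest rises on the list, Ly6c1 and Ly6c2, were near-identical copies whose probes may not separate them. The summed signal of the measured macrophage markers was 5.06 in control and 6.19 in Drp1LiKO on the log2 scale.

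Of 15 measured endothelial markers 10 rose (66.7%, against 4.46% of all genes) and 0 fell, with a median of 1.46. The receptor Kdr went from -2.79 to -0.36, the cadherin Cdh5 from -2.11 to -0.04, Clec1b from -4.21 to -1.05 and Stab2 from -2.10 to -0.85. Tek, Tie1, Lyve1 and Erg were above background in Drp1LiKO alone and Vwf on neither array. Of all genes 1536 were above background in Drp1LiKO alone and 672 in control alone. The summed endothelial signal was 3.55 and 4.36. Of 8 measured stellate cell and fibroblast markers 5 rose (62.5%, against 4.46% of all genes) and 0 fell, with a median of 1.09. Besides Dcn, Col1a2 went from -2.12 to 0.90, while Acta2 gave 5.48 and 5.70. Lrat, the defining enzyme of retinoid storage, and Col3a1 were above background in Drp1LiKO alone, and Des, Ngfr, Hand2 and Mgp on neither array. The summed stellate signal was 6.21 and 6.78.

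Most markers of other blood cells were above background on neither array. The lymphocyte markers had 3 of 17 members measured and 0 called, with 13 above background on neither array and Cd3d in Drp1LiKO alone. The neutrophil markers had 2 measured and 0 called, with S100a8, S100a9 and 6 others above background on neither array and Ly6g in Drp1LiKO alone. Their summed level, 5.16 and 5.22, came mostly from the receptor Csf3r (5.11 and 5.17). Of 9 dendritic cell markers Siglech alone was measured (5.77 and 5.95). Among 4 measured erythroid and platelet markers the platelet chemokine Pf4 rose 5.57-fold, from -4.31 to -1.83. In the bulk RNA of a culture, fewer cells of a type and less RNA per cell cannot be told apart. Macrophages also express many interferon-stimulated genes, chemokines, complement C1q and MHC class II genes. The macrophage, endothelial and stellate levels moved in the same direction as those groups, and their part in those results was not tested.

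**Figure D3:**
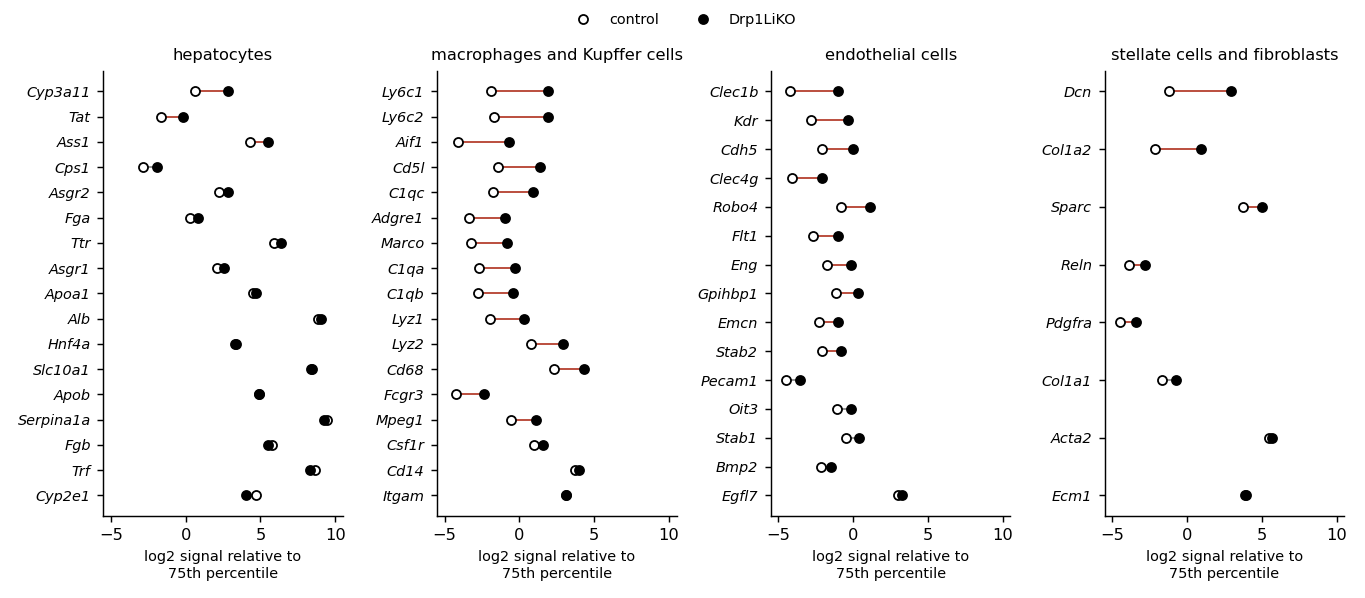
Levels of every measured marker of hepatocytes, macrophages, endothelial cells and stellate cells in control (open circles) and Drp1LiKO (filled circles) untreated cultures, 1 array each, as log2 signal relative to the 75th percentile of the array. A red line joins levels at least 2-fold apart, and nearly all macrophage markers lie to the right in Drp1LiKO while Alb, Hnf4a and Apob overlap.

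Chemokines, which attract leukocytes, went both ways. Of 9 measured CC chemokines 5 rose (55.6%, against 4.46% of all genes) and 2 fell (22.2%, against 3.36%). Ccl5 went from 0.15 to 3.64 and Ccl6 from -2.32 to 0.07, beside Ccl4 above. Ccl20, which attracts cells with the receptor CCR6, fell from 0.39 to -3.33 (13.1-fold), and in the palmitate pair by 3.57 on the log2 scale. Ccl2, the monocyte attractant, fell from 7.11 to 5.55. Of 11 measured CXC and other chemokines 4 rose (36.4%) and 1 fell (9.09%). The interferon-induced Cxcl10 went from 0.25 to 3.77 and Cxcl9 from 2.15 to 3.41, but Cxcl11, of the same subfamily, gave 7.87 and 7.90. Cx3cl1 fell from -2.50 to -4.12. Ccl3 and Cxcl5 were above background in Drp1LiKO alone, and Ccl1 and Cxcl2 in control alone. Among all genes 1536 were above background in Drp1LiKO alone and 672 in control alone. The Drp1LiKO levels of Ccl3 and Cxcl5 were 8.48-fold and 13.6-fold above the lowest flagged signal of the control array.

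Of 19 cytokines and inflammatory enzymes 4 rose (21.1%, against 4.46% of all genes) and 1 fell (5.26%, against 3.36%), with a median of -0.07. Lcn2, an iron-scavenging acute phase protein, went from 3.90 to 5.57 and Ptgs2 (COX-2) from -1.92 to -0.40, with 2 lit neighbours in Drp1LiKO. Csf1, the macrophage growth factor, fell from 4.05 to 2.21. Il1b, Il6, Irg1 and Casp1 were above background in Drp1LiKO alone, as were 1536 of all genes, against 672 in control alone. A flag on 1 array alone is not a call. The list of nuclear factor kappa B (NF-kB) subunits and feedback genes held no rise. Of 20 measured 1 fell, the adhesion receptor Icam1 (3.03 to 1.65), the inhibitor Nfkbia gave 3.79 and 2.85, and 14 of 20 were lower in Drp1LiKO, with a median of -0.23. Innate receptors showed 4 rises of 20 (20.0%, against 4.46% of all genes). These were Trem2 (-3.94 to -0.38), Clec7a (-2.39 to 0.17), the adaptor Tyrobp (-2.07 to 0.25) and Tlr13 (-3.27 to -1.74), which are genes of myeloid cells. Myd88 gave 2.22 and 1.94.

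Hepatocytes secrete acute phase proteins in inflammation. Of 47 measured acute phase and coagulation genes 2 rose (4.26%, against 4.46% of all genes) and 4 fell (8.51%, against 3.36%). Hamp, the iron hormone hepcidin, fell from 5.66 to 3.68, and serum amyloid A fell in both of its acute forms, Saa1 from 7.84 to 6.28 and Saa2 from 8.33 to 6.92. Ahsg (fetuin-A) rose from 4.74 to 6.38. Of 27 complement genes 5 rose (18.5%) and 0 fell, and the risers were C1qa, C1qb, C1qc, Fcna and Cfp. The first 3 are on the macrophage list as well. C1qc went from -1.78 to 0.93. Components made mostly by hepatocytes did not pass 2-fold, C4b with 5.25 and 5.75 and C9 with 4.16 and 4.68, and the median over the list was 0.48.

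**Figure D4:**
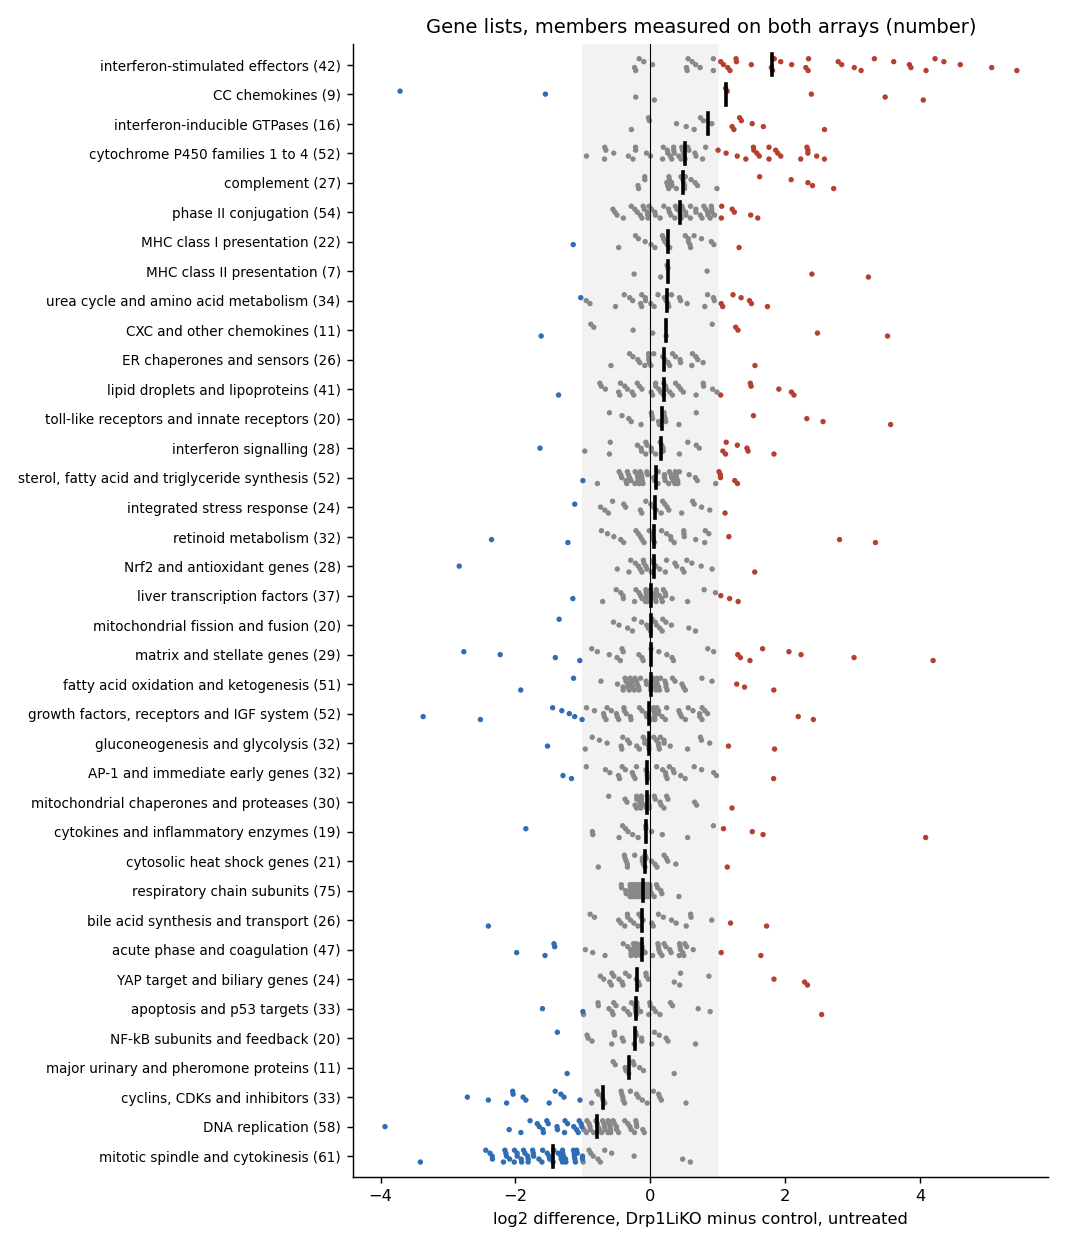
Log2 differences (Drp1LiKO minus control, untreated) of every measured member of the 38 gene lists, 1 point per gene, ordered by the list's median (black bar), with the number measured in brackets. The grey band holds differences under 2-fold, red and blue points are called genes, and interferon-stimulated effectors (median 1.80) and mitotic genes (median -1.44) stand at the ends while respiratory chain subunits stay inside the band.

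The list with the most falls was that of cell division. Dividing cells switch on the genes of the spindle, kinetochore and cytokinesis in G2 and M phase, and hepatocytes in culture can re-enter the cycle after plating. Of 61 measured genes of the mitotic spindle and cytokinesis, 50 fell (against 3.36% of all genes) and 0 rose, with a median of -1.44. In the palmitate pair 42 of 57 were at least 2-fold lower, with a median of -1.31. Ska1, a kinetochore subunit, fell from -1.04 to -4.45 and the checkpoint kinase Ttk from -1.67 to -4.11. Birc5 (survivin) went from 3.62 to 1.28, the anaphase activator Cdc20 from 1.82 to -0.34, the kinase Plk1 from 2.24 to 0.11 and topoisomerase Top2a from 1.15 to -0.67. The members on the other side of 0 were Pttg1 (3.63 and 4.22) and Cit (-4.18 and -3.70). A second Ect2 probe differed by -0.04 against -2.38 for the first. Ska2, Kif14, Kif15, Fam83d and Ckap2l were above background in control alone, as were 672 of all genes, against 1536 in Drp1LiKO alone.

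Of 58 measured DNA replication genes 21 fell (36.2%, against 3.36% of all genes) and 0 rose. All 58 were lower in Drp1LiKO, and the median was -0.80. Aunip, a DNA end-resection factor, had the largest fall among genes with a symbol, from 0.09 to -3.85 (15.3-fold), and in the palmitate pair by 1.70 on the log2 scale. Exo1, an exonuclease, went from 1.01 to -1.08 and Rrm2, which supplies deoxynucleotides, from 3.93 to 2.15. The helicase loader Cdc6 fell from 0.61 to -1.07, and the helicase subunit Mcm4 gave 4.09 and 3.15. Of 33 cyclins, kinases and inhibitors 12 fell (36.4%) and 0 rose, with a median of -0.70. Ccna2 went from 1.33 to -1.08, Ccnb1 from -0.01 to -2.05, Cdk1 from 0.42 to -0.91 and the transcription factor Foxm1 from 0.80 to -1.33. The G1 cyclin Ccne1 gave 4.08 and 3.21. E2f7, an E2F repressor, was among the 15 largest falls (-0.48 to -3.20), but a second probe differed by -0.23. Histone genes, whose transcripts accumulate in S phase, had 17 of 43 measured members fall and 0 rise, among them Hist1h1b (0.98 to -1.26) and Hist1h2ab (4.38 to 2.60).

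The same 250 bases are shown for mitotic genes with the largest falls among those in the promoter table, because such promoters often hold a cell cycle homology region (CHR) and CCAAT boxes. Capitals mark TTTGAA (the CHR letters searched) and CCAAT, or their reverse complements. TTTGAA and CCAAT do not overlap in the windows shown, and the Ect2 window is 1 of 2 that the table holds.
Ttk (chr9:83834439-83834688, plus strand): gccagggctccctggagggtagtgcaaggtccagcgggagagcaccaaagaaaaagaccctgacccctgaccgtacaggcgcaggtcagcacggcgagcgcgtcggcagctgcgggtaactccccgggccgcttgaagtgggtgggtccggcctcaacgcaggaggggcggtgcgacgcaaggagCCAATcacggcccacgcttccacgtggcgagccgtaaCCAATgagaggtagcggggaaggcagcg
Ect2 (chr3:27153879-27154128, minus strand): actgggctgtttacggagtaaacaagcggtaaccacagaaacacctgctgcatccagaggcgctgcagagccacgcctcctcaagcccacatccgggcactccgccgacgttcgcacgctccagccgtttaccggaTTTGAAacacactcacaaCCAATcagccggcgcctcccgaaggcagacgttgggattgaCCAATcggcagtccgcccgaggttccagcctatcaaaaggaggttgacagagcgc
Birc5 (chr11:117848987-117849236, plus strand): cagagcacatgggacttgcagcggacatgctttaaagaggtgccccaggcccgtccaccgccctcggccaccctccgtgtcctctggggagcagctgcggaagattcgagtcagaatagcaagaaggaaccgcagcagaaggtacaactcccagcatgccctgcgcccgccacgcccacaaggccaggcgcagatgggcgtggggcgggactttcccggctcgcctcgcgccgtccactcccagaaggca
Cenpf (chr1:189688087-189688336, minus strand): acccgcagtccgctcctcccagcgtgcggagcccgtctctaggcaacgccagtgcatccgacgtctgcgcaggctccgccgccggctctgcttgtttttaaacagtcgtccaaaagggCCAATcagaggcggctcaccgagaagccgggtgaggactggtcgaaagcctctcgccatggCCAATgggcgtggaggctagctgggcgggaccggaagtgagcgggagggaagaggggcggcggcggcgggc

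CCAAT stood 2 times before Ttk, 2 times before Ect2 and 2 times before Cenpf, TTTGAA 1 time before Ect2, and 0 matches were in the Birc5 window. Over the 300-base windows TTTGAA was in 66.7% of 60 promoters of measured mitotic genes, in 20.9% of promoters of genes that fell, in 12.7% of those of all measured genes and in 17.9% of the table. CCAAT was in 70.0% of the mitotic promoters, in 42.8% of those of genes that fell, in 37.5% of those of all measured genes and in 37.4% of the table. Promoters of replication genes held TTTGAA in 14.5% and CCAAT in 56.4%.

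Of 52 measured growth factor and receptor genes 7 fell (13.5%, against 3.36% of all genes) and 2 rose (3.85%, against 4.46%). Avpr1a, the hepatic vasopressin receptor, fell from 1.36 to -2.01 (10.3-fold) and Igfbp6 from -0.56 to -3.08. Areg, a ligand of the epidermal growth factor receptor, rose from 0.23 to 2.42 and the activin chain Inhbb from -2.36 to 0.06. Bmp4, Erbb2, Fgf1, Fgf21 and Hbegf made up the other falls. Of 32 immediate early genes 1 rose (3.12%) and 2 fell (6.25%). Egr2 rose (-4.03 to -2.21), and the phosphatase Dusp6 (4.29 to 3.0) and Ier3 (3.67 to 2.50) fell.

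Among the 15 largest falls outside the cell cycle and chemokine lists, some recurred in the palmitate pair. Elmod1 went from 0.61 to -2.54, Tff1, a trefoil peptide, from 2.10 to -0.94, Fgfbp1 from -1.89 to -4.63 and Iqgap3 from -0.76 to -3.53, with palmitate differences of -3.28, -1.89, -2.19 and -1.90. Others did not recur. Prmt1, the main arginine methyltransferase of the cell, went from 4.74 to 1.62 and its second probe by -3.33, yet the palmitate pair gave 4.95 and 5.03. Strn went from -0.62 to -3.60 with a palmitate difference of 0.02, and Olfr32 (-1.09 to -4.42) and Kcnu1 (-1.94 to -4.71) were not measured in the palmitate pair. On the control array the Olfr32 and Strn spots had 3 lit neighbours each and the Kcnu1 spot 2, and the Strn spot had 2 more on the Drp1LiKO array.

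Of 20 measured mitochondrial fission and fusion genes Dnm1l was the only call, and Pld6 was above background in control alone. The fusion proteins Mfn1, Mfn2 and Opa1 gave differences of 0.14, 0.23 and 0.18, and Fis1 and Mff, receptors that recruit Drp1, gave -0.24 and 0.18. Of 75 respiratory chain subunits 0 rose and 0 fell. They were lower in Drp1LiKO in 68 of 75, with a median of -0.11 against -0.04 over all genes, and the outermost were Ndufa5 (6.22 and 5.79) and Ndufa11 (3.39 and 2.97). Among 30 mitochondrial chaperones, proteases and regulators the coactivator Ppargc1a rose (-1.85 to -0.64) and Tfam gave 2.30 and 1.92.

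In the 5 stress lists 3.03 to 4.76% of members rose, against 4.46% of all genes, and 0 to 6.06% fell, against 3.36%. Of 24 genes of the integrated stress response Ddit4 rose (3.40 to 4.51) and Fgf21 fell (-0.49 to -1.62), with Atf4 at 7.05 and 7.32 and Asns at 6.04 and 5.65. Of 26 ER chaperones and sensors Derl3 rose (-1.62 to -0.07), and Creld2 (4.68 and 5.38) and Hyou1 (-2.90 and -2.12) did not pass 2-fold. The median of the ER list was 0.20. Of 21 cytosolic heat shock genes the inducible chaperone Hspa1a rose by 1.14 on the log2 scale, with a palmitate difference of 0.17. Among 28 Nrf2 and antioxidant genes Gpx2 rose (-2.54 to -0.99) and Hmox1, heme oxygenase 1, fell from 3.21 to 0.38 (7.13-fold). Hmox1 was higher on both palmitate arrays, at 4.44 and 4.78, with a difference of 0.34. Srxn1 gave 5.83 and 6.74 and Nqo1 -0.02 and 0.37. Of 33 apoptosis and p53 target genes Bcl2a1d rose (-2.0 to 0.53). Bax, a pore-forming Bcl2 protein, fell from 4.98 to 3.38, with -1.83 at its second probe and 0.13 in the palmitate pair. Fas fell by 1.00 on the log2 scale, at the threshold, with -0.75 at its second probe and -0.89 in the palmitate pair. The file's annotation places its brightest probe on chromosome 4, and whether that probe reads Fas was not tested.

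Cytochrome P450 enzymes oxidise drugs, steroids and fatty acids. Of 52 measured members of families 1 to 4, 19 rose (36.5%, against 4.46% of all genes) and 0 fell, with a median of 0.51. In the palmitate pair 19 of 50 were at least 2-fold higher and 1 at least 2-fold lower, with a median of 0.58. Cyp3a11, the main Cyp3a enzyme of mouse liver, went from 0.62 to 2.85, Cyp3a25 from -2.26 to 0.20 and Cyp3a41a from 3.01 to 5.33. Cyp2b10, the classical target of the xenobiotic receptor CAR, went from -2.24 to -0.38, Cyp2a4 from 3.22 to 5.11 and Cyp4a12a from 0.11 to 1.65. Nr1i3, which encodes CAR, rose from -4.59 to -2.87. Its control level lay close to -4.72, the lowest signal flagged well above background on that array. Cyp2e1 gave 4.72 and 4.06 and Cyp1a2 -0.78 and 0.04, and 0 of 9 Cyp2d and 2 of 11 Cyp2c genes rose. Within the Cyp3a, Cyp2a, Cyp2b and Cyp4a12 groups the sequences are close, so probes may share signal and the rises are not independent. Of 54 phase II conjugation genes 6 rose (11.1%, against 4.46% of all genes) and 0 fell, with a median of 0.44. Among the risers were the carboxylesterase Ces2c (0.87 to 2.46) and the estrogen sulfotransferase Sult1e1 (-1.68 to -0.47).

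Retinoid metabolism held the retinoic acid-degrading enzymes Cyp26b1 (-3.39 to -0.06) and Cyp26a1 (-1.66 to 1.14), which rose, and Aldh1a1, a retinal dehydrogenase, which fell from 6.13 to 4.91. Both Cyp26 genes were not measured in the palmitate pair, and their spots had 2 and 3 lit neighbours on an untreated array. Of 32 genes of the list 3 rose (9.38%, against 4.46% of all genes) and 2 fell (6.25%, against 3.36%). In bile acid synthesis and transport 2 of 26 rose (7.69%, against 4.46% of all genes), Nr1i3 and the uptake carrier Slco1b2 (-2.03 to -0.84). Of these 26 genes 1 fell (3.85%, against 3.36%). Cyp39a1 fell (1.45 to -0.96), with a palmitate difference of 0.13.

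Of 41 lipid droplet and lipoprotein genes 6 rose (14.6%, against 4.46% of all genes) and 1 fell (2.44%, against 3.36%). Hilpda, a droplet protein that inhibits lipolysis, went from 2.50 to 4.63, Cidea, which enlarges droplets, from 1.57 to 3.05, the cholesterol exporter Abcg1 from -2.98 to -1.08, and lipoprotein lipase Lpl from -1.93 to 0.16. Angptl4, which inhibits that lipase, fell from 5.99 to 4.63. Of 52 genes of sterol, fatty acid and triglyceride synthesis 5 rose (9.62%) and 1 fell (1.92%). Dgat2, which makes triglyceride, went from 3.59 to 4.61 and Thrsp from 0.73 to 1.77. Lpin1 went from -0.90 to 0.35 at its brightest probe and differed by only 0.22 at its second. The spot of the brightest Lpin1 probe had 2 lit neighbours on the Drp1LiKO array. Acacb rose by 1.29 on the log2 scale at its brightest probe and gave -0.33 at its second. Of 51 genes of fatty acid oxidation and ketogenesis 3 rose (5.88%) and 2 fell (3.92%). Pdk4, which restrains pyruvate oxidation, went from -1.74 to 0.09 and the fatty acid transporter Slc27a1 from -1.01 to 0.27. Cpt1a, the entry step of mitochondrial oxidation, gave 1.85 and 1.36, and Slc25a20, the carnitine carrier, fell from -0.75 to -2.68 with a palmitate difference of -0.07.

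Of 34 genes of the urea cycle and amino acid metabolism 7 rose (20.6%, against 4.46% of all genes) and 1 fell (2.94%, against 3.36%). The median was 0.25. Arg1 went from -2.27 to -0.80, Ass1 from 4.29 to 5.52, Tat from -1.67 to -0.17 and Hal from -3.32 to -1.59, and Kynu fell from -1.33 to -2.37. Among 32 genes of glucose metabolism 2 rose (6.25%) and 1 fell (3.12%), near the shares of all genes. The risers were Hk3 (-3.51 to -1.67), a hexokinase of leukocytes, and the phosphofructokinase Pfkp (1.74 to 2.90). Of 37 liver transcription factors 3 rose (8.11%) and 1 fell (2.70%), beside 4.46% and 3.36% of all genes. The clock gene Dbp (-0.87 to 0.44), Creb3l3 (2.28 to 3.46) and Ppard (0.68 to 1.72) rose and Tbx3 (-0.60 to -1.75) fell. A second Tbx3 probe differed by -0.69. Major urinary proteins had 1 fall, Mup11 (1.22 to -0.01), in 11 measured. A second Mup11 probe differed by -0.34, and the spot of the first had 2 lit neighbours on the control array.

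Of 29 measured matrix genes 8 rose (27.6%, against 4.46% of all genes) and 4 fell (13.8%, against 3.36%). A further 13, among them Col3a1, Col6a1, Lum, Postn and Mmp12, were above background in Drp1LiKO alone and 0 in control alone. Over all genes the counts were 1536 in Drp1LiKO alone and 672 in control alone. Beside Dcn and Col1a2, the inhibitor Timp3 went from -1.67 to 0.57 and Tnc from -4.35 to -2.30. Lox, which cross-links collagen, fell from -0.87 to -3.63, Timp2 from 1.86 to -0.37, Plat from 0.64 to -0.77 and Timp1 from 3.28 to 2.23. Dcn, Col1a2 and Sparc are on the stellate marker list as well. Among 24 Yes-associated protein (YAP) target and biliary genes 3 rose (12.5%) and 0 fell. Krt23 (-2.55 to -0.22), Cldn4 (0.93 to 3.21) and Tagln (1.29 to 3.12) rose, and Ankrd1 and Cyr61, classical YAP targets, gave differences of -0.47 and -0.42.

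Of gene families grouped by symbol alone, with at least 8 measured members, the largest shares called were in Ccl (7 of 9), Ifi (5 of 8), Clec (6 of 12), Ly (5 of 11), Hist1h (7 of 16) and Hist (17 of 43), against 7.82% of all genes. The Hist1h group held Hist1h1, Hist1h3 and Hist1h4 genes but no Hist1h2a or Hist1h2b genes. It lies within Hist, so both counts share genes. The Ifi members that rose were Ifi27l2a, Ifi27, Ifi204, Ifi205 and Ifi27l2b, and the Clec members, C-type lectins, included Clec1b, Clec4a1, Clec7a, Clec12a and Clec4n. Ly6e gave 4.64 and 6.17 and Ly6d -0.86 and 1.52.

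The palmitate pair repeated most of these directions. Of the 788 genes that rose, 660 were measured on both palmitate arrays, 618 (93.6%) were higher in Drp1LiKO there too and 389 (58.9%) were at least 2-fold higher, where 3.07% of all genes of that pair were. Of the 593 that fell, 542 were measured, 503 (92.8%) were lower and 288 (53.1%) at least 2-fold lower, where 2.48% of all genes were. Genes not called in the untreated pair were at least 2-fold apart in 209 of 15409 cases (1.36%). Above 4-fold the share was larger. Of 154 such rises 139 were at least 2-fold in the palmitate pair, and of 69 such falls 51 were. The palmitate pair differs in treatment and slide, and is not a replicate.

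**Figure D5:**
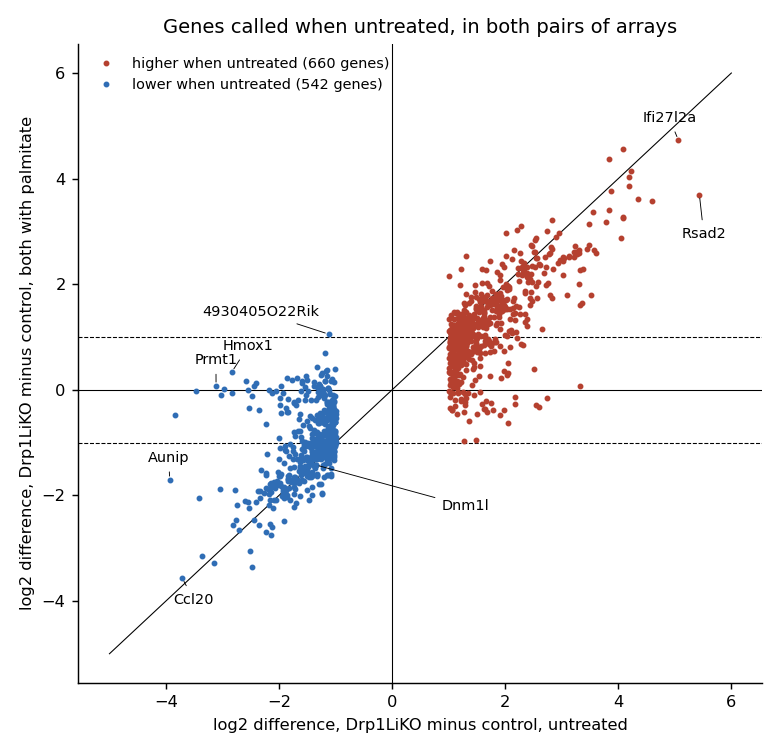
Log2 differences (Drp1LiKO minus control) of the 660 higher and 542 lower genes that were also measured in the palmitate pair, untreated on the x axis and with palmitate on the y axis, 1 point per gene. The solid diagonal marks equal differences and the dashed lines 2-fold with palmitate, and a row of fallen genes near 0 on the y axis includes Prmt1 and Hmox1.

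Genes with a second measured probe gave a further check on the probes, though not on the animals. Of 134 risen genes with such a probe, 86 were at least 2-fold higher at it, 34 were higher by less and 14 were in the other direction. Of 163 fallen genes 84 were at least 2-fold lower at the second probe, 60 lower by less and 19 in the other direction. Genes above background on a single untreated array were more often seen in Drp1LiKO. They numbered 1536 in Drp1LiKO and 672 in control. Of the 1536, 425 were at least 2-fold above the lowest signal flagged well above background on the control array. Of the 672, 318 were at least 2-fold above that of the Drp1LiKO array.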

How the data were processed

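RNA of 4 hepatocyte cultures (untreated and 200 μM palmitate, control and Drp1LiKO, 1 array per group) was hybridised to 1-colour Agilent arrays on 2 slides. The authors deposited the scanner output of each array, in which every value is a background-subtracted processed spot intensity, and a value table of the same arrays. Per the file headers the scanner output was made with Feature Extraction 10.7.1.1, while the submitters' processing notes name 9.5.1.1. The deposited table held the same sorted intensity values in all 4 columns, that is, a quantile-normalized processed signal on a linear scale (median 4.18 after log2). It was used as an alternative only.

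Control spots and spots with outlier flags (47 to 71 per array) were left out, repeat spots of a probe were averaged, log2 was taken and the array's 75th percentile (420 to 537 intensity units) subtracted. For each gene name the probe with the highest mean over the 4 arrays was kept, and a gene was measured where that probe was well above background (44.7 to 51.1% of 56605 probes) on both arrays compared. A call was a log2 difference of at least 1. With 1 array per group no test was run, and precision is limited by how many arrays there are. For a gene above background on 1 untreated array alone, the fold is taken against the lowest signal well above background on the dim array. It is not a strict bound, since spots without the flag can lie above that signal. The summed level of a list is the log2 of its measured members' summed linear levels.

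Genes in the text are Dnm1l, the 15 largest rises and falls with a gene symbol, up to 4 called members (or 3 where none was called) of each gene list, up to 4 markers of each cell type with those above background on neither array, and the 6 symbol families with the largest share called. A few of these genes are not reported here. Other genes were named after their values were seen. The comparison, members and lists were chosen with earlier results of these data known. Of the listed symbols 1567 matched the array directly, 6 through an older symbol and 29 not at all. Promoters came from RefSeq (GRCm38.p6), of whose genes 10990 matched measured genes by symbol, and were searched on both strands. Alternatives were another background correction (normexp), scaling, the deposited values, filters on dim probes, all probes of a gene, outlier spots kept, neighbouring spots and the fold threshold. The calling step was tested on simulated data. Python 3.11.15, numpy 2.4.6, pandas 2.3.3, scipy 1.17.1, matplotlib 3.10.9, R 4.3.3 and limma 3.58.1 were used. The study's methods and the labels name different RNA extraction kits, and which was used for these arrays is not known here.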

Additional observations from a re-analysis of the deposited data

Results flagged for a closer look

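The uncharacterised transcript 4930405O22Rik was the only gene at least 2-fold apart in opposite directions in both pairs. Drp1LiKO minus control was -1.12 in the untreated pair and 1.05 in the palmitate pair, so that the difference between them was -2.18 on the log2 scale. With 1 array per group this difference was not tested.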

How the results depend on the processing

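The 1381 calls (788 higher, 593 lower) stayed within 1.5 times under quantile normalization, centring on the median, the authors' processed values, the mean of all probes and outlier spots kept, and without spots beside lit neighbours. Without spots beside dim neighbours, an alternative chosen after seeing the data, 784 were higher and 592 lower. Under normexp 738 genes were called, 429 higher and 309 lower. With a probe above background on at least 1 array 2857 were called, 1751 higher and 1106 lower, and with no filter 4679, of which 2582 were higher and 2097 lower. At 1.5-fold 3456 genes were called and at 4-fold 270. The share of calls that were higher was 57.1%, and moved to 51.5% after quantile normalization, 51.7% with the authors' values and 61.3% with a probe above background on at least 1 array. At its brightest probe Acacb reversed to -0.31 under normexp, and the CC chemokine median reversed to -0.079 with no filter. Of the named genes 23 lost their call under normexp, 7 with the mean of all probes, 2 after quantile normalization, 1 with the authors' values and 1 with outlier spots kept. The cause was not tested. No paired analysis was possible because each group had 1 array. Calls were most frequent in the dimmest tertile of genes, where signal over background is lowest. Neither pair has a replicate, so the spread between animals is unknown for every value.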

Other observations

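Some called genes outside the lists were picked after their values were seen, and stand for no group. Among genes that leukocytes express, the differences were 3.64 for the receptor Cd72, 2.95 for Cd52, 2.57 for the GTPase Rac2, 2.55 for the kinase Syk and 2.47 for the Fc receptor chain Fcer1g. In the palmitate pair they were 2.71 for Cd72, 2.96 for Cd52, 2.50 for Rac2, 1.97 for Syk and 2.34 for Fcer1g. Ch25h, which makes the antiviral sterol 25-hydroxycholesterol, was higher by 2.89 and by 2.88 with palmitate. The proliferation marker Mki67 gave -2.17 and Cdca3 -2.16. The natriuretic peptide gene Nppb gave -2.48 and -3.35 with palmitate, and Rgs2, a regulator of G protein signalling, 3.17 and 2.26.

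Some genes stood apart on the untreated Drp1LiKO array alone, with the other 3 arrays within 0.5 log2 units of each other (a rule chosen after seeing the data). Of these 28 were higher, 3.55% of all genes that rose, and 53 were lower, 8.94% of all that fell. On the untreated control array 14 were higher alone and 1 lower, on the palmitate control array 9 and 5, and on the palmitate Drp1LiKO array 9 and 1. Tkt, the transketolase of the pentose phosphate pathway, was at 6.91, 4.43, 6.79 and 6.68 on the control, Drp1LiKO, palmitate control and palmitate Drp1LiKO arrays. The cochaperone Dnajc7 was at 3.95, 1.52, 3.96 and 4.03 in the same order, and its second probe differed by -2.26 in the untreated pair. The endosomal GTPase Rab5c was at 1.14, 3.88, 1.34 and 1.17. Prmt1, Bax, Cyp39a1 and Slc25a20 belonged to the lower ones. Of the 53 lower genes 19 had a second measured probe, which was at least 2-fold lower for 6, and of the 28 higher genes 6 had one, which was at least 2-fold higher for 1.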
